A study of Mus musculus with 21 samples.

Results

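Retinal cells carrying Notch1 on their surface were compared at 2 ages, postnatal day 7 (P7) and the day of birth (P0), to describe how gene expression in this fraction changed over the first postnatal week. The comparison rests on 6 of the 21 arrays of the series, 3 at each age, chosen by their labels alone. All animals were C57BL/6 mice, and the labels name no transgene, treatment or sex for either age. Cells were pulled from dissociated retina with a biotin-conjugated Notch1 antibody and magnetic beads, each sample held 200000 to 500000 cells, and the replicates of an age were independent biological samples according to the design text. That text calls the fraction retinal progenitor cells, and how many animals went into a sample is not given in the sources used here. Notch1+ arrays at P3 (3 arrays) and P14 (3 arrays) were used where the course within the week, or the week after it, is described.

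Notch1 is a receptor that is cut after binding a Delta or Jagged ligand on a neighbouring cell, and its freed intracellular part switches on repressors of the Hes and Hey families. In the developing retina this keeps progenitors dividing and holds back neuronal differentiation, and the last-born cells, among them rods, bipolar cells and Müller glia, arise from such progenitors after birth. Müller glia are the radial glia of the retina, and they retain Notch signalling longer than neurons do. A magnetic sort enriches cells rather than purifying them. The RNA of a sample is therefore a mixture, in which fewer cells of a type and less RNA per cell cannot be told apart.

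Each array carried 34312 transcript probes, and the scanner software found a spot for 55.4% to 64.9% of them at P0 and for 60.9% to 73.9% at P7. Levels are given as log2 of the normalized spot intensity, so that a difference of 1 is a factor of 2. Over all kept probes the 3 P0 arrays correlated with each other at r = 0.977 to 0.989 and the 3 P7 arrays at 0.968 to 0.983, against 0.914 to 0.961 between the ages. P7 array 3 stood nearer to the P3 arrays (r = 0.963 to 0.981) than P7 array 1 (0.935 to 0.958) or P7 array 2 (0.939 to 0.946) did. It also had the P7 level closest to P3 for many of the gene groups below. P0 array 3 and P7 array 2 were scanned on one day and the other 4 arrays on another.

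Notch1 itself was bright on every array. Its level was 15.29, 15.26 and 15.45 at P0 and 14.86, 14.80 and 15.05 at P7, with 1 P0 array saturated. The P7 arrays were all below the P0 arrays, but the difference of -0.43 (95% interval -0.82 to -0.04) did not pass the test (adjusted p = 0.118). With the authors' processed values Notch1 was called lower (-0.81, adjusted p = 0.00771). Slc1a3, the glutamate transporter also called Glast, which progenitors and Müller glia share, read 14.33, 14.31 and 13.95 at P0 and 15.78, 15.65 and 15.63 at P7. It rose by 1.49 (SE 0.37, adjusted p = 0.00771), with 2 P7 arrays saturated, where the level is a lower limit. The rise missed the threshold under median scaling (adjusted p = 0.116) and with the authors' processed values (0.101). RNA of both genes was thus present at both ages, alongside RNA of other cell types that is described further on.

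Of 12612 genes tested with limma across the table, 2759 (21.9%) were called, meaning a Benjamini-Hochberg adjusted p under 0.05. Of these, 1393 (11% of those tested) were higher at P7 and 1366 (10.8%) were lower. Rises made up 50.5% of the calls, against 38.4% with the authors' processed values (1210 higher and 1937 lower). The rises were the larger changes: 980 called genes were at least 2-fold higher and 683 at least 2-fold lower, and 66 against 6 changed at least 16-fold. The median difference over all genes was -0.01, with quartiles of -0.29 and 0.33. The P0 and P7 arrays did not overlap for 5081 genes (40.3%), 20.3% with P7 higher and 20% with P7 lower. Between P0 and P3, 258 genes were called (2.05%), 0.777% of all genes higher and 1.27% lower. Between P3 and P7 there were 1210 (9.59%), 5.69% higher and 3.91% lower. These share arrays with the comparison of the whole week and are given as values only.

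**Figure D1:**
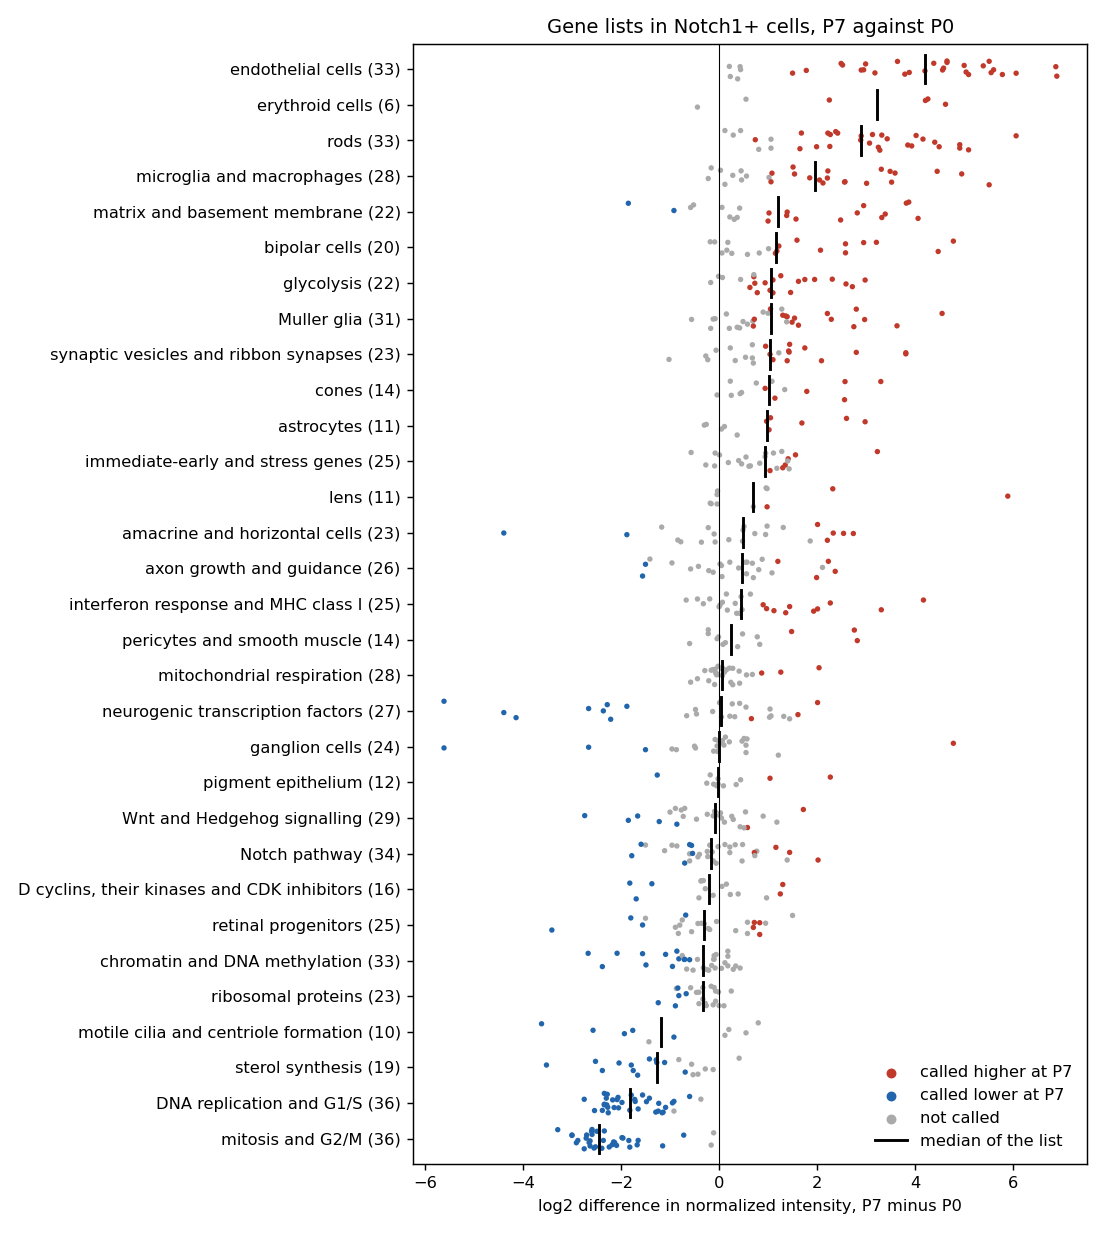
Difference in normalized log2 intensity between P7 and P0 for every measured member of 31 gene lists, 1 point a gene, with the number measured in brackets, the list median as a black bar, and calls in red (higher at P7) or blue (lower). The 2 cell division lists lie farthest left, with medians of -2.44 and -1.81, and the endothelial list farthest right with a median of 4.20.

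Genes of cell division fell as a block. Of 36 measured genes of mitosis and G2/M, 34 were called lower, with a median of -2.44, and of 36 that serve replication and the G1/S step, 34 were called lower, with a median of -1.81. The 2 remaining members of each list were not called. These counts stand against 10.8% of all genes called lower and a median of -0.01.

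Top2a, the topoisomerase that untangles chromosomes before they separate, had log2 levels of 13.09, 13.27 and 12.93 at P0, 11.95, 11.52 and 11.95 at P3, and 9.48, 9.67 and 10.28 at P7. The 3 ages formed 3 separate bands. It was 9.77-fold lower at P7 than at P0 (difference -3.29, SE 0.21, adjusted p = 1.77e-08). Ttk, a kinase of the spindle checkpoint, read 11.08, 11.25 and 10.99 at P0 and 8.05, 8.53 and 8.62 at P7, 6.51-fold lower (adjusted p = 1.47e-08). Kif23, a kinesin of the dividing midzone, fell by 2.59, and Ccnb2, a cyclin that drives entry into mitosis, fell by 1.96. All P7 arrays of these genes lay below all P0 arrays. Among the replication genes, Pole and Pold1, catalytic subunits of DNA polymerases, fell by 2.75 and 2.34, Prim1, the primase that lays down RNA primers, by 2.29, and E2f2, a transcription factor of S phase genes, by 2.34.

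The mean level of the mitosis list was 12.45, 12.52 and 12.37 on the P0 arrays, 11.83, 11.53 and 11.56 at P3, and 9.82, 10.18 and 10.68 at P7. Every P7 array was below every P3 array, and P7 array 3 kept the highest level of the 3. The median member changed by -0.86 between P0 and P3, by -1.57 between P3 and P7, and by -0.18 between P7 and P14. The replication list read 11.85, 11.94 and 11.70 at P0, 11.44, 11.15 and 11.13 at P3, and 9.86, 10.01 and 10.39 at P7. The order of the P7 arrays was the same as for mitosis.

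**Figure D2:**
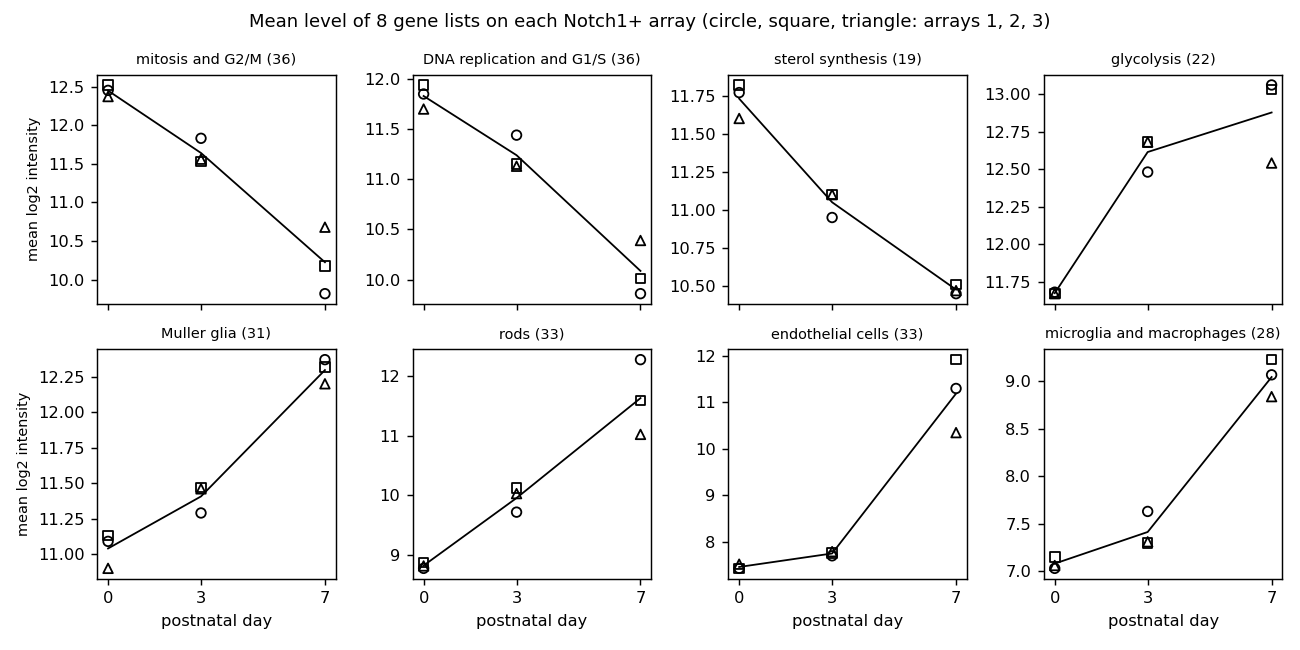
Mean log2 intensity of 8 gene lists on each Notch1+ array at postnatal days 0, 3 and 7; circles, squares and triangles are arrays 1, 2 and 3, the line joins the means of each age, and each panel has its own scale. The mitosis list falls from 12.37 to 12.52 at P0 to 9.82 to 10.68 at P7, and the endothelial list stays between 7.43 and 7.79 up to P3 and reaches 10.35 to 11.92 at P7.

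Many promoters of mitotic genes hold CCAAT boxes, bound by the factor NF-Y, together with a cell cycle homology region whose core reads TTTGAA, which the DREAM and MuvB complexes use to keep such genes off outside G2 and mitosis. The 3 called mitosis genes with the smallest adjusted p whose listed promoter holds both motifs are shown here, because the fall of this list leads the comparison. Each run is the 250 bases before the gene's start in RefSeq (GRCm38.p6), 5′ to 3′ on the strand of the gene, with CCAAT (or ATTGG) and TTTGAA (or TTCAAA) in capitals. The second gene is Ccnb2, and Ube2c encodes an enzyme that marks mitotic cyclins for destruction.
Top2a: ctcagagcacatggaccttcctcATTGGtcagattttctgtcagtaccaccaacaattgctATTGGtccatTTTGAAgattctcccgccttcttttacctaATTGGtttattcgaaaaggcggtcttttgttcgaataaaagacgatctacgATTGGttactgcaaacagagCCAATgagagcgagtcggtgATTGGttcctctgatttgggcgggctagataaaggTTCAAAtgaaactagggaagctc
Ccnb2: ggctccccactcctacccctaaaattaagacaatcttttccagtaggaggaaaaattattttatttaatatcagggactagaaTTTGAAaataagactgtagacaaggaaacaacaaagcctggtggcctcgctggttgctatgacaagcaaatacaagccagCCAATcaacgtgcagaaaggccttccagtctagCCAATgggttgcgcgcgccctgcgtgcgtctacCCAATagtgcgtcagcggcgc
Ube2c: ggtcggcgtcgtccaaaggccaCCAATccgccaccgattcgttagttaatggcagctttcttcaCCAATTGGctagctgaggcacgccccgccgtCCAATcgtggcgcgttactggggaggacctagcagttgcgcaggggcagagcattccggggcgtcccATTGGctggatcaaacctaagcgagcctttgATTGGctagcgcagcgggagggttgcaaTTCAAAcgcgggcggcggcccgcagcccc
The Top2a run lies at chr11:99024190-99024439 on the minus strand, that of Ccnb2 at chr9:70421555-70421804 on the minus strand, and that of Ube2c at chr2:164769679-164769928 on the plus strand. Top2a holds 6 CCAAT matches and 2 of TTTGAA, Ccnb2 holds 3 and 1, and Ube2c holds 6 and 1, with 2 of the 6 overlapping in a single CCAATTGG. Over the 250 bases and both strands, CCAAT was found in 21 of 27 listed promoters of the mitosis genes (77.8%), in 18 of 30 of the replication genes (60%) and in 40.5% of the 10037 tested genes that had a promoter in the table. TTTGAA was found in 11 of 27 (40.7%), 4 of 30 (13.3%) and 13.7%. A match describes letters in this window, not a site.

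Of 16 cyclin D, CDK, inhibitor and Rb family genes outside these lists, 3 were called lower and 2 higher, against 10.8% and 11% of all genes. Cdk2, the kinase of S phase entry, fell by 1.82 (adjusted p = 1.73e-05), Rbl1, a pocket protein that peaks in cycling cells, by 1.69, and Cdkn2c, an inhibitor of CDK4 and CDK6, by 1.37. The inhibitors Cdkn1c and Cdkn2b rose by 1.25 and 1.3. Cdkn1c, which marks cells leaving the cycle in the retina, read 13.46, 13.18 and 13.54 at P0 and 14.37, 14.97 and 14.58 at P7, with no overlap; the rise missed the threshold with the authors' values (adjusted p = 0.0593). Ccnd1, the cyclin D of retinal progenitors, was saturated on all 3 arrays of each age on its brightest probe, so no size is given. Of its 3 other probes the furthest differed by -1.58, and the mean over its probes was called lower (adjusted p = 0.0162).

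Of 33 genes of chromatin and DNA methylation, 12 were called lower, against 10.8% of all genes, and 21 were not called (median -0.32). Asf1b, a chaperone that hands histones to new DNA, fell by 2.67, Uhrf1, which guides the maintenance DNA methyltransferase, by 2.38, H2ax, a histone variant that marks breaks, by 2.08, and Dnmt1, the maintenance methyltransferase itself, by 1.49. Of 10 genes of motile cilia and centriole formation, 5 were called lower, against 10.8% of all genes, and 5 were not called. Differences over this list ran from -3.62 to 0.80, and 4 of the 10 were positive. Plk4, the kinase that starts a new centriole, fell by 2.57, Rsph1, a protein of the axoneme's radial spokes, fell by 3.62, and Rfx2, a factor of ciliary genes, fell by 1.93.

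Cholesterol synthesis also fell. Of 19 measured genes of the pathway, 12 were called lower and 7 were not called, with a median of -1.27, against 10.8% of all genes called lower. Msmo1, a sterol demethylase, read 12.32, 12.48 and 12.05 at P0, 10.67, 11.32 and 11.31 at P3, and 9.95, 9.89 and 9.86 at P7. Each age lay below the one before it without overlap, and P7 was 5.21-fold lower than P0 (adjusted p = 4.32e-07). Hsd17b7, which acts at a later step, was 2.42-fold lower. The mean level of the list was 11.77, 11.82 and 11.60 at P0, 10.95, 11.10 and 11.10 at P3, and 10.45, 10.51 and 10.47 at P7. Its median member moved by -0.64 between P0 and P3 and by -0.44 between P3 and P7, and the P7 arrays were closer together than for the division lists.

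Glycolysis moved the other way. Of 22 measured genes, 17 were called higher and 5 were not called, with a median of 1.07, against 11% of all genes called higher. Aldoa, the aldolase, had levels of 11.87, 12.17 and 11.62 at P0, 13.76, 14.35 and 14.36 at P3, and 15.03, 14.40 and 14.38 at P7. Most of its rise lay before P3, and it was 6.59-fold higher at P7 than at P0 (adjusted p = 3.68e-07). Pfkp and Pfkl, forms of phosphofructokinase, the committed step, rose by 2.98 and 2.59. Pfkl had no usable spot on 1 of the 3 P0 arrays, which the fit left out, and the furthest of Pfkp's 3 other probes differed by -0.13. Pdk1, a kinase that keeps pyruvate out of the mitochondrion, read 9.14, 8.90 and 8.99 at P0, 11.12, 11.73 and 11.60 at P3, and 10.99, 10.55 and 10.76 at P7. Its level at P7 was 3.37-fold that at P0, yet below every P3 array. The median member of the glycolysis list moved by 0.67 between P0 and P3 and by 0.22 between P3 and P7. Glycolysis calls fell to 10 under median scaling and to 11 with the authors' values. Mitochondrial respiration changed less: of 28 genes, 3 were called higher, against 11% of all genes, and 25 were not called (median 0.07). Of these 3 only Ckmt1, the mitochondrial creatine kinase, kept its call under every alternative run, with a rise of 1.26 (adjusted p = 0.000916).

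Factors that direct retinal progenitors to early-born neurons were among the largest falls of the week. Of 27 neurogenic transcription factors, 8 were called lower and 3 higher, with a median of 0.05, against 10.8% and 11% of all genes. Atoh7, required for retinal ganglion cells, had levels of 13.13, 12.83 and 12.70 at P0, 11.28, 10.34 and 10.31 at P3, and 7.01, 7.1 and 7.72 at P7. It was 48.8-fold lower at P7 (difference -5.61, SE 0.25, adjusted p = 5.7e-10). Ptf1a, which selects the horizontal and amacrine fates, read 12.81, 12.26 and 12.73 at P0, 11.92, 11.81 and 11.56 at P3, and 7.70, 8.07 and 8.87 at P7. Its P3 arrays lay below its P0 arrays without overlap, and most of its fall came after P3. It was 20.9-fold lower at P7 (adjusted p = 2.55e-09). Foxn4, which acts upstream of Ptf1a, read at least 13.87 on every P0 array and 9.37, 9.86 and 10.47 at P7, 17.6-fold lower. For all 3 factors P7 array 3 had the highest level at P7.

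Further falls were Dlx1, a homeobox factor of ganglion and inhibitory neurons (-2.28), Onecut1, needed for horizontal cells (-1.88), Sox11, expressed in newborn neurons (-2.66), and Olig2, a basic helix-loop-helix factor of neurogenic progenitors (-2.36). The factors that rose were Neurod2 (1.61), Neurod4 (2.01) and Nhlh1 (0.66), which are expressed in differentiating neurons. Neurod2 read 7.90, 7.85 and 7.79 at P0, 9.73, 9.44 and 9.80 at P3, and 9.31, 9.67 and 9.39 at P7, so its rise was in place by P3. Neurod4 read 7.96, 8.59 and 7.56 at P0 and 10.63, 8.93 and 10.57 at P7. Its call was lost without P0 array 1 or 3, or without P7 array 1 or 3 (adjusted p from 0.0554 to 0.0903). Neurog2, Hes6 and Insm1, further markers of neurogenic cells, differed by -0.66, -0.13 and -0.46 and were not called.

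Genes of the progenitor state gave no common direction. Of 25, 4 were called lower, 4 higher and 17 were not called (median -0.30), against 10.8% and 11% of all genes called lower and higher. Fgf15, a growth factor of embryonic and newborn retinal progenitors, read 14.51, 14.38 and 14.57 at P0, 13.02, 12.86 and 12.88 at P3, and 10.61, 11.11 and 11.51 at P7. It was 10.6-fold lower (adjusted p = 1.15e-05), in 3 bands without overlap. Fbxo5, an inhibitor of the anaphase-promoting complex, fell by 1.80, Gadd45a by 1.56 and Penk by 0.68. Those that rose are also expressed by glia: Vim, an intermediate filament (0.70), Nes, another one (0.83), Id3, an inhibitor of helix-loop-helix factors (0.83), and Hes1 (0.72). Each of these 4 lost its call with the authors' values (adjusted p from 0.151 to 0.31), and Nes also without P0 array 1 or 3 or P7 array 2 or 3 (0.0586 to 0.0994). The other Nes probe differed by -0.11, and the Nes call was lost with the mean over its probes (0.114). The homeobox and Sox factors Pax6, Sox2, Rax, Six3, Six6, Lhx2 and Sox9 were not called, with differences from -0.80 to 0.58.

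**Figure D3:**
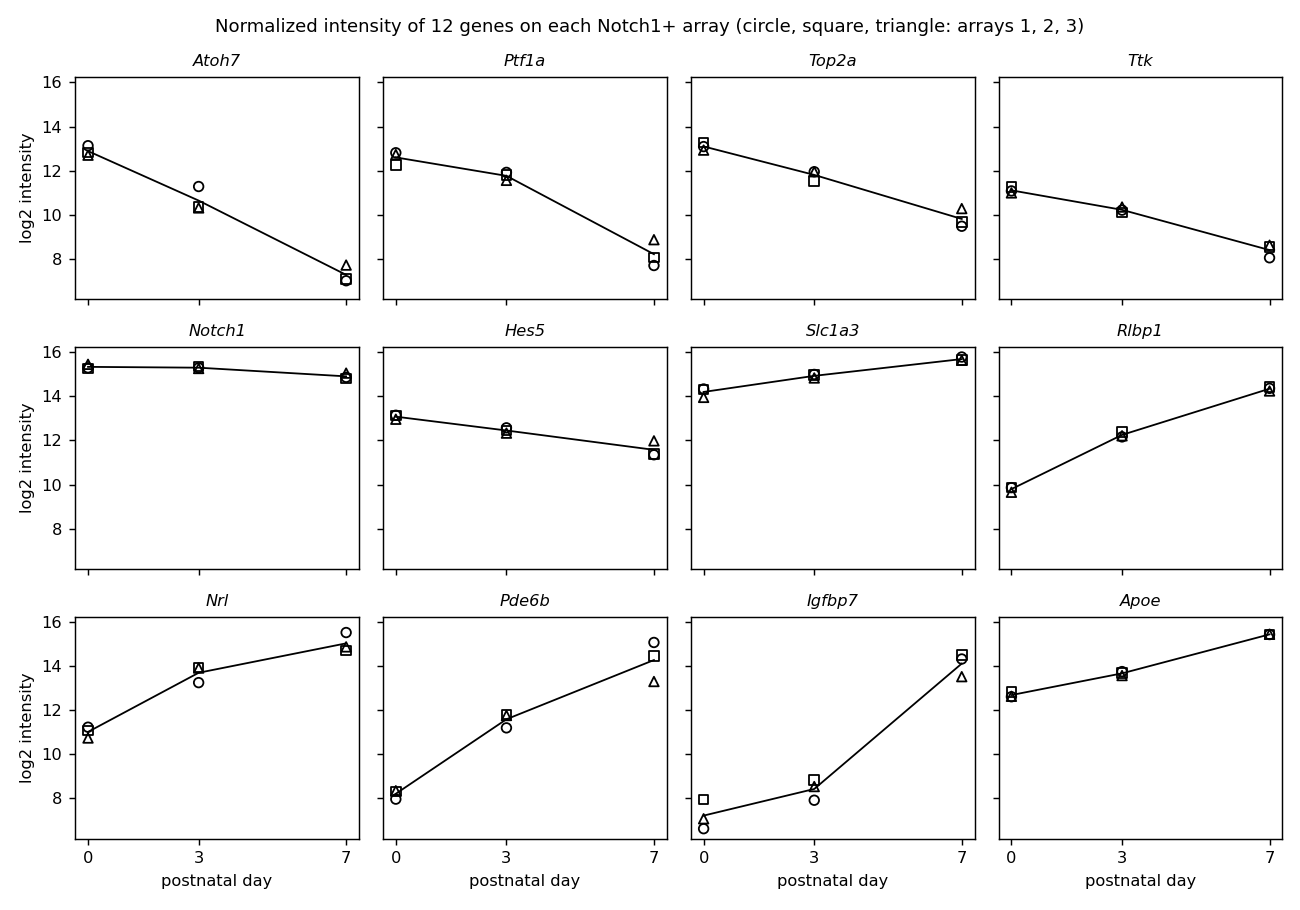
Normalized log2 intensity of 12 genes on each Notch1+ array at postnatal days 0, 3 and 7, all panels on one scale, with circles, squares and triangles for arrays 1, 2 and 3 and a line through the means. Atoh7 drops from 12.70 to 13.13 at P0 to 7.01 to 7.72 at P7, Notch1 stays between 14.80 and 15.45, and Igfbp7 climbs from 6.63 to 7.96 to 13.52 to 14.50.

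The Notch pathway was described through 34 measured members, of which 4 were called higher, 6 lower and 24 were not called, with a median of -0.17. Of all genes 11% were called higher and 10.8% lower. Among the ligands, Dll4, a Delta ligand of newly committed retinal precursors, read 11.85, 11.67 and 11.96 at P0 and 9.76, 10.58 and 9.82 at P7. It was 3.43-fold lower (adjusted p = 0.00145) with no overlap, while its other probe differed by -0.12. Jag1, a Jagged ligand, read 7.79, 7.47 and 7.35 at P0 and 9.72, 10.34 and 8.61 at P7, 4.05-fold higher (adjusted p = 0.0046) and again without overlap. Dlk1, a Delta-like protein without the receptor-activating domain, rose by 1.44, with 0.41 on its other probe. In a fit on the second scan day alone the calls of Jag1 and Dlk1 were lost (adjusted p = 0.0997 and 0.121). Dll1 and Dll3 differed by -0.96 and -1.11 and Jag2 by 0.47, and these did not pass. Dll1 had no overlap between the ages, and Dll3 did.

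Of the receptors, Notch4, expressed mainly in endothelium, rose by 1.16 (adjusted p = 0.0266), and Notch3, found in mural cells, differed by -0.60 (adjusted p = 0.297). Notch4 read 11.51, 11.35 and 11.36 at P0 and 12.57, 13.22 and 11.90 at P7. The P7 arrays stood in the same order for Notch4 and Jag1, 2 above 1 above 3, as for the endothelial list, whose part in these rises was not tested. The Notch4 call was lost without any single one of P0 arrays 1 to 3 or P7 arrays 1 and 2 (adjusted p from 0.0576 to 0.144) and with the authors' values (0.119). Of enzymes that modify or cut the receptor, Mfng, a fringe glycosyltransferase, fell by 0.70 (adjusted p = 0.00453, but 0.0932 under median scaling), and Psenen, a subunit of gamma-secretase, by 0.56 (0.0444). The fringes Lfng and Rfng differed by -0.12 and 0.22, the gamma-secretase subunits Ncstn, Aph1a and Psen2 by -0.06, 0.12 and -0.02, and the sheddases Adam10 and Adam17 by 0.77 and 0.48. These 7 did not pass (adjusted p from 0.154 to 0.983), and the furthest of Aph1a's other probes differed by -1.32. Mib1, the ubiquitin ligase that readies ligands for signalling, fell by 0.60 (adjusted p = 0.0424), and Maml1, a coactivator of the nuclear complex, by 0.54 (0.0477). Both calls, and that of Psenen, lie just inside the threshold and were lost under median scaling and without P0 array 1 or P7 array 1. Pofut1, which adds the O-fucose that fringes extend, differed by -0.86, Neurl1a and Mib2, ligases of ligands, by 1.39 and 0.22, Numb and Numbl, which promote receptor uptake, by 0.33 and -0.14, and Dtx1 and Dtx4, deltex ligases, by -0.60 and -0.24. These 7 were not called either.

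Downstream, the Hes and Hey repressors were not uniform. Hes5 read 13.14, 13.13 and 12.96 at P0, 12.57, 12.45 and 12.33 at P3, and 11.35, 11.39 and 11.98 at P7. The 3 ages did not overlap, but the difference of -1.5 (SE 0.62) did not pass (adjusted p = 0.102); it did in a fit on the compared groups alone (0.0021) and with the authors' values (0.0388). Hes1 read 12.12, 12.39 and 11.66 at P0, 12.09, 11.72 and 11.67 at P3, and 12.80, 12.91 and 12.60 at P7. It was 1.64-fold higher (adjusted p = 0.0349), without overlap between P0 and P7, and the call was lost under median scaling (0.237), with the authors' values (0.251), and without P0 array 1 or 3 or P7 array 1 or 2 (0.0718 to 0.178). Heyl, a target found in mural cells and progenitors, read 11.02, 10.96 and 10.91 at P0 and 8.91, 9.13 and 10.09 at P7, 3.01-fold lower (adjusted p = 0.0153). Its call was lost without P7 array 1 (0.082) or P7 array 2 (0.0592), and on the second scan day alone (0.203). Hey1 and Hey2 differed by -0.19 and 0.73 and Nrarp, a feedback target, by -0.23, with no call. Rbpj, the DNA-binding partner of the pathway, differed by -0.40 with overlapping arrays.

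Hes5 is a direct target of the Notch complex, and its promoter is shown for the RBPJ core TGGGAA (or TTCCCA), in capitals. It lies at chr4:154960673-154960922 on the plus strand (GRCm38.p6).
Hes5: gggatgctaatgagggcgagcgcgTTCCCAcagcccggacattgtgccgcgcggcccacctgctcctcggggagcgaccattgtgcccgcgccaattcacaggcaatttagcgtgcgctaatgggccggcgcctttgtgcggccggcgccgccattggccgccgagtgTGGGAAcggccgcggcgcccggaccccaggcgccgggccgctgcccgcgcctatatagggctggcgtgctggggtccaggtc
The 2 matches in Hes5 lie on opposite strands. Over 250 bases the core was found in 6 of 28 listed promoters of the pathway (21.4%) and in 24.4% of those of all tested genes.

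**Figure D4:**
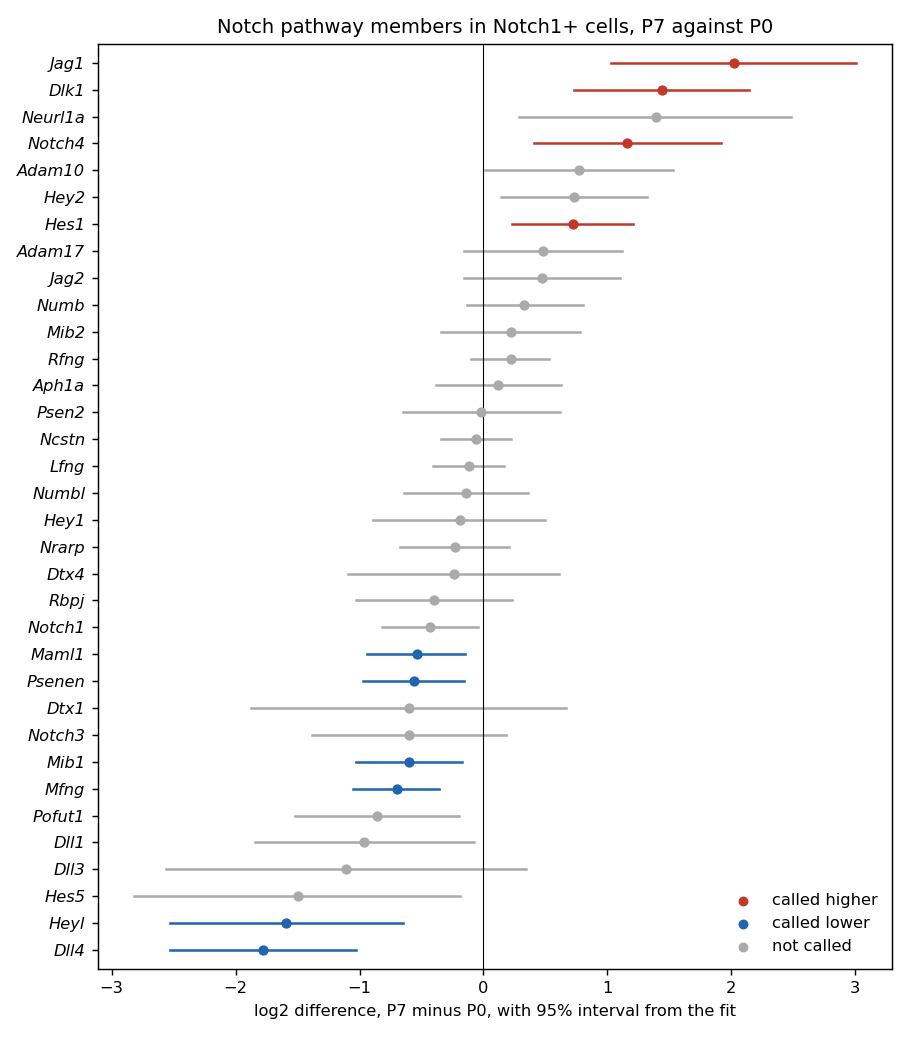
Difference in log2 intensity between P7 and P0 for each of 34 measured Notch pathway members, with the 95% interval from the fit; red and blue mark calls and grey the members that were not called. Jag1 at 2.02 and Dll4 at -1.78 are the outermost calls, and Notch1 at -0.43 is among those not called.

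Genes of Müller glia rose in part. Of 31 measured markers, 16 were called higher, against 11% of all genes, and 15 were not called. The median was 1.05, against -0.01 over all genes. Rlbp1, a retinaldehyde-binding protein of mature Müller glia, read 9.86, 9.87 and 9.65 at P0, 12.16, 12.38 and 12.21 at P3, and 14.36, 14.43 and 14.24 at P7. The replicates of each age lay close together, the 3 ages did not overlap, and P7 was 23.4-fold above P0 (difference 4.55, SE 0.47, adjusted p = 2.07e-06). Apoe, a lipid carrier made by glia and by microglia, read 12.61, 12.82 and 12.63 at P0 and 15.43, 15.44 and 15.44 at P7, 6.72-fold higher, with 2 P7 arrays saturated. Timp3, an inhibitor of matrix proteases, rose 4.63-fold and Mlc1, a membrane protein of glial endfeet, 12.4-fold on its brightest probe, whose partner probe differed by 0.07. Clu, an extracellular chaperone, rose by 2.80 and Car14, a carbonic anhydrase, by 2.97.

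Several defining Müller genes did not pass. Glul, glutamine synthetase, read 12.18, 12.77 and 11.99 at P0 and 12.95, 12.39 and 13.06 at P7, with overlap (difference 0.49, adjusted p = 0.391). Aqp4, a water channel of mature endfeet, differed by 0.37, and Sox9, a factor of progenitors and glia, by 0.58. Gfap, the filament of astrocytes and of injured Müller glia, was found by the scanner on 1 P0 array and on no P7 array. The Müller list had a mean level of 11.09, 11.13 and 10.90 at P0, 11.29, 11.47 and 11.46 at P3, and 12.37, 12.32 and 12.20 at P7. Its count was 10 of 31 under median scaling. Of 11 astrocyte genes, 6 were called higher, against 11% of all genes. Among them were Gja1, the gap junction protein connexin 43 (2.60), and Pdgfra, the receptor of astrocyte precursors (2.98).

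Rod genes had the highest median of the neuronal lists. Of 33 rod genes, 27 were called higher, against 11% of all genes, and 6 were not called, with a median of 2.90. Nrl, the factor that decides rod fate, read 11.23, 11.08 and 10.74 at P0, 13.25, 13.93 and 13.91 at P3, and 15.52, 14.70 and 14.87 at P7. It was 16.2-fold higher (adjusted p = 4.24e-05), with 1 P7 array saturated. Crx, the photoreceptor homeobox factor, was 4.84-fold higher (adjusted p = 0.0141), and its call was lost without P7 array 1 (0.0654) or under median scaling (0.0543). Pde6b, a subunit of the rod phosphodiesterase, read 7.97, 8.32 and 8.35 at P0, 11.20, 11.81 and 11.76 at P3, and 15.07, 14.45 and 13.30 at P7, 66.8-fold higher (adjusted p = 3.03e-07). Prph2 and Rom1, which shape the outer segment disc, rose by 5.09 and 3.32, with 2 P7 arrays saturated for Rom1, where the level is a lower limit.

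The rod list averaged 8.78, 8.88 and 8.82 at P0, 9.72, 10.12 and 10.03 at P3, and 12.27, 11.59 and 11.02 at P7. Here P7 array 1 was highest and array 3 lowest. Of 14 cone genes, 6 were called higher, against 11% of all genes. Gnb3, a transducin subunit of cones, rose by 2.57, Pde6h, an inhibitory subunit of the cone phosphodiesterase, by 3.3, Gngt2 by 1.79 (call lost under median scaling, adjusted p = 0.0597) and Arr3, cone arrestin, by 2.56. Arr3, found on 1 of 3 P0 arrays, lost its call without P7 array 1 (adjusted p = 0.072), where the cone count went from 6 to 3. The cone pigments Opn1sw and Opn1mw differed by 0.23 and 1.08 and were not called.

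CRX and OTX2 bind a site whose core reads GGATTA. The 3 genes shown here are the called rod genes with the smallest adjusted p whose promoter holds it. Genes on the chromosome left out for the mitosis genes were left out here too. The 3 are Sag, rod arrestin, Cngb1, a subunit of the light-sensitive channel, and Guca1a, a calcium sensor of the cyclase. They rose by 4.91, 4.91 and 3.43. Their upstream runs are at chr1:87803430-87803679 on the plus strand, chr8:95306586-95306835 on the minus strand and chr17:47400607-47400856 on the minus strand (GRCm38.p6), with GGATTA or TAATCC in capitals.
Sag: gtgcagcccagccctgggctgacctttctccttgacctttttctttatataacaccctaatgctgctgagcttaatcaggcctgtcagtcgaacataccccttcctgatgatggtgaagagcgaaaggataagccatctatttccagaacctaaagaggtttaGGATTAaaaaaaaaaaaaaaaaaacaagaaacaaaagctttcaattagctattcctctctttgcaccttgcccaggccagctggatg
Cngb1: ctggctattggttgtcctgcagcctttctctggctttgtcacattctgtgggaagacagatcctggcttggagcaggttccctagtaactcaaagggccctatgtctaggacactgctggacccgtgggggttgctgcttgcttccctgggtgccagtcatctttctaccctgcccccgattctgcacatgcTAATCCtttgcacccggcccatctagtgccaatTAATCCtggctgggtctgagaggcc
Guca1a: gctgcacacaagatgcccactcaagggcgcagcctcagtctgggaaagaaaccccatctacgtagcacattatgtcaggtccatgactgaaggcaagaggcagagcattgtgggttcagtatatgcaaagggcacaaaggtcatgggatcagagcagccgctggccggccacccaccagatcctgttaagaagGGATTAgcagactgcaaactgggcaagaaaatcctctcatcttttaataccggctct
Cngb1 holds 2 matches and the others 1 each. The core was found in 10 of 24 listed rod promoters (41.7%), against 6.63% of those of all tested genes. CCAAT, shown above for the mitosis genes, was in 14 of the 24 (58.3%).

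Bipolar cell genes rose in 11 of 20 cases, with a median of 1.17, against 11% of all genes called higher. Isl1, a factor of ON bipolar and of ganglion cells, read 7.84, 8.70 and 6.75 at P0, 7.29, 7.73 and 8.02 at P3, and 13.70, 13.08 and 10.84 at P7. It was found on 2 of 3 P0 arrays and rose 27.4-fold (adjusted p = 1.15e-05), and its P0 and P3 arrays overlapped. Pcp2, a G protein regulator of ON bipolar cells, rose by 2.95 and Grik1, a kainate receptor subunit of OFF bipolar cells, by 3.21. Cabp5, a calcium sensor of bipolar cells, was found on no P0 array and was at least 5.97-fold higher at P7 (levels 6.43, 6.49 and 6.26, then 9.88, 8.85 and 8.19). For such genes the P0 mean was set no lower than the array's dimmest found probe. Of 23 synaptic genes, 12 were called higher (median 1.04), against 11% of all genes. Stx3, the syntaxin of ribbon synapses, rose by 3.81 on its brightest probe and differed by 1.75 on the other, Syp, synaptophysin, by 2.80, Lrit1, a photoreceptor synapse protein, by 3.81 and Vamp2 by 0.95 (call lost under median scaling, adjusted p = 0.0761). Without P7 array 1 the bipolar count fell to 5 and the synaptic count to 4.

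Of 23 amacrine and horizontal genes, 5 were called higher and 2 lower (Ptf1a and Onecut1), against 11% and 10.8% of all genes. Septin4, a cytoskeletal GTPase, rose by 2.33, Lamp5 by 2.54, Meis2, a homeobox factor of amacrine cells, by 2.21, and Pcp4, found on no P0 array, by at least 6.67-fold. Of 24 ganglion cell genes, 3 were called lower and 1, Isl1, higher, against 10.8% and 11% of all genes. The 3 were Atoh7, Sox11 and Stmn2, a tubulin-binding protein of growing axons (-1.5, adjusted p = 0.0452). The Stmn2 call was lost without any single one of the 6 arrays but P7 array 1 (adjusted p from 0.0782 to 0.195), with the replicate block (0.0588) and with no filter on dim probes (0.0612). Pou4f2 and Pou4f1, the factors that mark ganglion cells, differed by -0.02 and -0.04. Among 26 axon guidance genes, Nrp1, a semaphorin and VEGF receptor, rose by 1.99, Unc5b and Unc5c, netrin receptors, by 2.37 and 2.23, Efnb2 by 1.20 (call lost under median scaling, adjusted p = 0.0674), and Slit1, a repellent, fell by 1.56. Of 29 Wnt and Hedgehog genes, 5 were called lower and 2 higher, against 10.8% and 11% of all genes. Those that fell include Hhip, a Hedgehog-binding inhibitor (-2.74), Sfrp1, a secreted Wnt antagonist (-1.85), and the receptors Fzd2 (-1.66) and Fzd5 (-1.22). The other Fzd5 probe differed by -0.20. Ndp, the ligand norrin, which retinal vessels need, rose by 1.72.

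The largest rises of the week were in genes of blood vessels. Of 33 endothelial markers, 28 were called higher, against 11% of all genes, and 5 were not called, with a median of 4.20. Igfbp7, a secreted growth factor binding protein of vessels, read 6.63, 7.96 and 7.08 at P0, 7.92, 8.83 and 8.54 at P3, and 14.32, 14.50 and 13.52 at P7. It was found on 2 of 3 P0 arrays and was 119-fold higher (difference 6.89, SE 0.34, adjusted p = 1.01e-09). Aplnr, the apelin receptor of sprouting vessels, read 6.59, 7.09 and 6.95 at P0, 7.60, 7.80 and 7.80 at P3, and 13.64, 14.87 and 12.74 at P7, with 1 of 3 P0 arrays found. P7 array 2 was the highest and array 3 the lowest. Flt1, a VEGF receptor, rose by 5.51 on its brightest probe and differed by 0.61 on the other. Slc38a5, an amino acid transporter of retinal vessels, rose by 5.55. It was found on 1 of 3 P0 arrays, as were Cd93, Icam2 and Mmrn2. Robo4, an endothelial guidance receptor, was found on no P0 array and was at least 55-fold higher, though its other probe differed by 0.53. The defining junction and receptor genes Cdh5, Pecam1 and Tek rose by 4.20, 4.65 and 4.38, and Kdr by 1.5.

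At P0 12 of the 33 endothelial markers were found on no array, and at P7 30 were found on all 3. The log2 of their summed level ran from 14.80 to 14.95 at P0 and from 16.78 to 18.21 at P7. Their mean level was 7.43, 7.43 and 7.52 at P0, 7.70, 7.76 and 7.79 at P3, and 11.30, 11.92 and 10.35 at P7. P3 was thus close to P0, and the 3 P7 arrays differed among themselves by more than P3 did from P0. Erg and Slco1a4 were found on none of the 6 arrays. The part of vessel RNA in the other results was not tested. Of 12 named genes with the largest rises, Pde6b of rods, Laptm5 of microglia and Cryab, a small heat shock protein counted here with the lens list, were the only ones outside vessels or their surface, which Cd34, Cd93, Icam2, Mmrn2, Robo4, Igfbp7, Aplnr, Flt1 and Slc38a5 mark.

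Basement membrane followed. Of 22 matrix genes, 13 were called higher and 2 lower, against 11% and 10.8% of all genes. Lamb1, a laminin chain, was found on no P0 array and was higher by at least 3.82 on the log2 scale, Nid2, which links laminin to collagen, was 16.7-fold higher, Sparc, a collagen-binding protein, 9.99-fold and Lama4, the laminin chain of vessels, 7.06-fold. Col6a1 and Fbn1 fell by 1.85 and 0.92, and the furthest of Col6a1's other probes differed by -0.40. The Fbn1 call was lost without P0 array 1 or 2 or P7 array 3 (adjusted p from 0.0539 to 0.0624). Of 14 pericyte genes, 3 were called higher, against 11% of all genes. Vtn rose by 2.76 and Higd1b and Rgs5, found on no P0 array, by at least 7.05-fold and 2.78-fold. The Rgs5 call was lost without P0 array 1 or 3 or P7 array 1 or 2 (adjusted p from 0.0623 to 0.101). The other 11 were not called, among them the defining receptor Pdgfrb (0.38) and Cspg4 (0.13). Of 6 red cell genes, 4 were called higher (median 3.23), against 11% of all genes. Hba-a1 and Hbb-bt rose by 4.62 and 4.26, but the globin genes are near-identical copies whose probes may not tell them apart. The log2 of the red cell list's summed level ran from 9.45 to 10.05 at P0 and from 12.05 to 14.13 at P7.

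Microglial RNA rose too. Of 28 markers of microglia and macrophages, 19 were called higher, against 11% of all genes, and 9 were not called, with a median of 1.95. Laptm5, a lysosomal protein of blood-derived cells, read 7.65, 9.32 and 7.81 at P0, 10.66, 9.56 and 9.57 at P3, and 14.01, 14.07 and 13.22 at P7, 45.5-fold higher (adjusted p = 3.46e-08). Ctss, a lysosomal protease found on 1 of 3 P0 arrays, was 30.9-fold higher, C1qa, a chain of complement C1q, 11.3-fold and Fcrls, a microglial receptor, 21.8-fold on its brightest probe, with 0.30 on the other. Cx3cr1 and Trem2, receptors that define microglia, rose by 2.22 and 3.01. The markers Ptprc, Itgam, P2ry12 and Tmem119 differed by 0.12, 0.03, 0.46 and 0.56 and were not called. At P0 8 of the 28 were found on no array, and at P7 26 were found on all 3. The limit given for the endothelial counts, from the choice of probes, holds for these too. The log2 of the summed level ran from 12.32 to 12.54 at P0 and from 14.87 to 15.58 at P7.

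Interferon response and MHC class I genes were called higher in 10 of 25 cases (median 0.45), against 11% of all genes. Ifitm3, a membrane protein that blocks virus entry and is also made by endothelium, read 6.80, 6.62 and 6.64 at P0, 6.66, 6.85 and 6.83 at P3, and 10.98, 11.51 and 10.06 at P7, 17.9-fold higher. The immunoproteasome genes Psmb8 and Psmb9 rose by 3.31 and 2.01, and the furthest of the 2 other Psmb8 probes differed by -0.22. Ifitm3, Psmb8 and Psmb9 were found on 1 of 3 P0 arrays. The classical response genes Isg15, Ifit3 and Irf7 differed by 0.07, 0.36 and 0.17 and were not called. The count went to 6 without P0 array 2 or P7 array 2. Of 25 immediate-early and stress genes, 6 were called higher, against 11% of all genes. Ier3 rose by 3.23, Atf3 by 1.41 and Hspb1 by 1.56, with 0.10 on the other Hspb1 probe. Fos rose by 1.3 with 2 P7 arrays saturated, and its call was lost under median scaling (adjusted p = 0.148), cyclic loess (0.0678) and with the authors' values (0.248).

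The largest falls of the week were led by Atoh7. After it came Sstr2, a somatostatin receptor, with levels of 14.99, 14.97 and 15.12 at P0, 12.90, 12.22 and 12.34 at P3, and 9.17, 9.38 and 10.24 at P7. It was 43.2-fold lower (adjusted p = 3.9e-07). Krt73, a keratin found on 1 of 3 P7 arrays, was 29.2-fold lower, 1700016K19Rik 22.2-fold, Crip3 13.8-fold, and Ptpru, a receptor phosphatase, and Tnnt2, a troponin, 11.3-fold each. H3c2, a replication-dependent histone H3 gene, was 12.1-fold lower, with the reserve that histone genes are near-identical copies. Of 23 ribosomal protein genes, 5 were called lower (median -0.33), led by Rplp0 with -1.24, against 10.8% of all genes. The lens list held 3 called of 11 and the pigment epithelium list 3 of 12, against 21.9% of all genes called. In the pigment epithelium list Best1 fell by 1.26 and Mitf and Dct rose by 1.04 and 2.27, with 0.10 on the other Mitf probe. Of the genes named so far, Crip3, Dlx1, Onecut1 and Best1 were found on 2 of 3 P7 arrays, and Cryab, Dct, Dlk1, Grik1, Lama4, Lamp5, Hba-a1 and Hbb-bt on 2 of 3 P0 arrays.

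The course within the week was tested as the change from P3 to P7 minus the change from P0 to P3, intervals of 4 and 3 days. Of 12612 genes, 119 were called (0.944%), 108 of them (0.856%) with the later change the higher and 11 (0.0872%) with the later change the lower. Endothelial genes held 20 of their 33 members among the 108, matrix genes 6 of 22. The endothelial count was 10, 11 or 13 without P3 array 3, 2 or 1 and 15 to 25 without any other single array, and the matrix count was 3 without P3 array 2 or 3 and at most 8. Slc38a5 read 7.02, 6.63 and 7.00 at P0, 6.66, 7.11 and 6.94 at P3, and 12.35, 13.22 and 11.72 at P7. The first 2 ages overlapped, and the later change exceeded the earlier by 5.51 (adjusted p = 0.00014). Ptgis, the prostacyclin synthase, exceeded it by 4.54 (0.00014), Selenop, a selenium carrier, by 2.55 (0.000844), and the surface proteins Cd34 and Cd93 of vessels and Anxa3, found on 2 of 3 P0 arrays, by 4.47, 4.37 and 4.20 (each 0.0013). Genes with the later change the lower were Pdk1 (-3.20, adjusted p = 0.000844), Ptf1a (-2.71), Ntsr2, a neurotensin receptor (-1.68), Bnip3, a mitochondrial protein induced when oxygen is short (-1.82), Klf13 (-1.68) and Krt73 (-1.97). Bnip3 read 7.42, 7.21 and 7.26 at P0, 8.61, 9.02 and 8.65 at P3, and 8.65, 8.29 and 8.29 at P7. Krt73 read 11.28, 12.20 and 11.74 at P0, 10.22, 10.42 and 10.22 at P3, and 6.66, 6.55 and 7.40 at P7. Pdk1 and Bnip3 thus stood highest at P3, and the larger step down of Ptf1a and Krt73 lay after P3. The count went to 38, 42 or 65 when P3 array 3, 2 or 1 was left out, and to 259 without P7 array 3. In a fit on the Notch1+ arrays alone it was 30.

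The first and second weeks were compared as the change from P7 to P14 minus that from P0 to P7, 7 days each. There were 1377 called genes (10.9%), 684 (5.42%) with the second-week change the higher and 693 (5.49%) with it the lower. Of the division genes, 26 of 36 for mitosis and 26 of 36 for replication were called with the second-week change the higher. Without P7 array 1 these counts were 13 and 9, without P7 array 2 the replication count was 17, and under median scaling they were 17 and 13. Gcnt1, a glycosyltransferase, fell by 3.31 in the first week and had a second-week change higher by 5.73 (adjusted p = 5.42e-07). Atoh7 (4.78), Krt73 (4.39), Ooep (3.58), Ttk (2.80) and Cit, a kinase of the cleavage furrow (3.75) also had the higher second-week change. The measure contains the first-week change, so it is high for a gene that fell and then stopped falling. From P7 to P14 itself Gcnt1 and Cit rose by 2.41 and 1.02, Ooep and Krt73 differed by 0.37 and -0.48, and Atoh7 fell further (-0.83). With the second-week change the lower were Sat1, a polyamine-degrading enzyme (-3.86), Igfbp7 (-5.61), Apoe (-2.93), Clnk (-1.96, found on 1 of 3 P0 arrays), Plcd1 (-3.74) and Amph, a synaptic vesicle protein whose other probe did not move with it (-5.21). A negative value need not be a fall after P7. From P7 to P14 itself Igfbp7 rose further (1.28), Apoe differed by -0.18, and Clnk, Plcd1 and Amph fell (-0.92, -2.12 and -1.71). Of the rod list 18 of 33 and of the Müller list 10 of 31 were called with the lower second-week change. Without P7 array 1 these were 7 and 3, and the Müller count was 5 without P7 array 2 or 3, 6 without any 1 of P0 arrays 1 to 3 or P14 array 1, 16 without P14 array 3 and 4 under median scaling. The count of 1377 went to 405 without P7 array 1, to 880 without P7 array 2 and to 2648 without P14 array 3, and to 808 under median scaling.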

How the data were processed

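RNA of Notch1+ cells was amplified to biotin-labelled RNA and hybridised to 1-colour oligonucleotide arrays, per the labels' protocols, and scanned with GenePix Pro 4.1.1.4 at 5 µm per pixel, per the file headers. The deposited scanner files give the linear intensity of each spot and its local background; the authors' processed table holds, per array, those intensities minus background multiplied by a factor, as a comparison of both showed. Depth has no meaning here, and the number of arrays limits the precision.

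Median intensities were background-corrected (normexp, offset 50) and quantile-normalized over all 21 arrays with limma 3.58.1 in R 4.3.3. Probes found by the scanner on every array of at least 1 group were kept (25264), spots flagged bad were left out of the fit, and each gene was read from its brightest kept probe. Symbols came from matching each probe's accession to RefSeq transcripts. By this match 22987 probes have 1 symbol and 11325 none. Group means of 8 groups were fitted (13 residual degrees of freedom), which share 1 estimate of spread, and contrasts were tested with limma's moderated test and Benjamini-Hochberg adjustment over all genes. A gene not found on any array of an age has only a bound there. The procedure was tested on simulated data with the spread of the real genes. Of 100 genes shifted by 1 in log2, 51 were called in the right direction, and of 100 shifted by 2, 92 were. There were 7 false calls. A gene that was not called may thus still have changed 2-fold.

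Members, gene lists and tests were chosen with earlier results of these data known. Genes named are 13 chosen for their roles, the 12 largest changes a direction, and all Notch pathway members. In each list they are the 4 members with the smallest adjusted p in its main direction and 2 in the other. For each of the interval contrasts they are 6 a direction, taken only from genes called between P7 and P0. Other genes named in the text were chosen after their values were seen. A few genes that these rules name are not reported here, and the list counts include them. Same-numbered arrays of P0 and P7 correlated at -0.05, -0.64 and -0.26 in their deviations. Of these pairs only the arrays numbered 1 shared a scan day, so this check cannot tell whether the numbers pair the arrays. The alternatives were scaling by the median or by cyclic loess, the values processed by the authors (pseudocount 50), no background correction, no filter, a mean over probes, a trended prior, a 2-fold minimum, a fit on the compared groups, replicate and scan-day blocks, scan day 2 alone, and each array left out. Promoter runs were read from RefSeq's table (GRCm38.p6).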

Additional observations from a re-analysis of the deposited data

Results flagged for a closer look

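For 119 genes the change from P3 to P7 differed from the change from P0 to P3 by a direct test of the difference, and 877 passed at an unadjusted p under 0.05. For 1377 genes the change from P7 to P14 differed from the change from P0 to P7 by the same kind of test, and 3121 passed unadjusted. No explanation was tested for either.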

How the results depend on the processing

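Over 25 counts and 14 alternatives that keep all arrays or scan day 2, 319 of 350 values stayed within 1.5 times the value reported, and, of the 191 genes named by the rules, those called kept their sign under every alternative that gave them a value. The cause of the exceptions was not tested. Scan day 2 alone, with 8 arrays in its fit and so fewer samples, gave 1447 called genes between P7 and P0, 71 for the second against the first week (2323 at an unadjusted p under 0.05) and, in limma, 0 for the later against the earlier interval (720 unadjusted). Its list counts were 8 for Müller glia, 1 lower in the Notch pathway, 3 for amacrine and horizontal cells, 2 for astrocytes, 4 for bipolar cells, 3 for cones, 7 for glycolysis, 2 for immediate-early genes, 2 for interferon, 3 for cilia, 1 for ribosomal proteins and 4 for synapses. Of the 191 genes, 44 lost their call on scan day 2 alone, and for 147 the call or its absence did not change. The 44 include Jag1, Dlk1, Heyl, Hes1 (adjusted p = 0.234), Cdkn1c (0.18), Slc1a3 (0.065), Fos (0.131), Meis2 (0.0859), Pdgfra (0.0603) and Pcp4 (0.0869). A 2-fold minimum left 1663 genes between P7 and P0, 2 lower in the Notch pathway, 6 in chromatin and 1 ribosomal. The authors' values gave 10 lower in the Notch pathway, 11 for glycolysis and 8 ribosomal. Median scaling gave 808 between the weeks, 10 for Müller glia, 2 lower in the Notch pathway, 10 for glycolysis and 3 ribosomal. The fit on the compared groups gave 556 between the weeks, 8 lower for Wnt and Hedgehog and 13 immediate-early genes. Notch1+ arrays alone, an alternative chosen after seeing the data, gave 30 for the later against the earlier interval. The replicate block, although the numbers are not known to pair the arrays, gave 2669, 134 and 1352 for these 3 comparisons, and the scan-day block 3152 between P7 and P0. Within the days, the list medians on day 1 and day 2 were -2.33 and -2.41 for mitosis, 3.01 and 3.03 for rods, 4.79 and 3.83 for endothelium, 1.96 and 1.86 for microglia, and 1.17 and 1.06 for Müller glia; day 1 holds 1 array an age and has no test.

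Leaving out each array in turn gave 1881 to 2772 genes between P7 and P0, 38 to 259 for the later against the earlier interval and 405 to 2648 for the second against the first week. The list counts ranged over 32 to 34 for mitosis, 32 to 34 for replication, 10 to 11 for sterols, 5 to 6 for cilia, 2 to 7 for ribosomal proteins, 9 to 12 for chromatin, 2 to 5 lower in the Notch pathway, 5 for Wnt and Hedgehog, 8 for neurogenic factors, 6 to 10 for interferon, 5 to 6 for amacrine and horizontal cells, 4 to 5 for immediate-early genes, 4 to 5 for astrocytes, 3 to 7 for cones, 4 to 12 for synapses, 11 to 14 for Müller glia, 13 to 15 for glycolysis, 5 to 11 for bipolar cells, 10 to 13 for matrix, 17 to 18 for microglia, 22 to 27 for rods and 28 for endothelium. The Notch pathway went to 3 without P7 array 2 or P0 array 1 and to 2 without P7 array 1, and the ribosomal count to 3 without P0 array 3 and to 2 without P7 array 2. The number of arrays limits what could be called, and up to 34.1% of an array's transcript probes were at or below their local background.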

Other observations

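Histone genes, a list chosen after the values were seen, fell with the division genes. Of 53 measured, 31 were called lower and 3 higher, with a median of -1.24, against 10.8% of all genes called lower. H2ac4 differed by -3.49, H1f5 by -3.41 and H3c2 by -3.60. Many histone genes are near-identical copies, so a probe may read several of them, and the count is uncertain for that reason.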
